A study of Mus musculus with 26 samples.

Results

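The RNA of 43 collagen chains was followed in the initial segment (IS) and caput of the epididymis and in the testis of ArKI and wild-type (WT) mice. The chains were the genes whose symbol has the form Col, a number, a and a number; 44 of the 23337 genes in the count tables carried such a name. Of these, *Col4a3bp* encodes a ceramide transfer protein rather than a collagen and was set aside, which left 11 fibrillar chains, 6 basement membrane chains (type IV) and 26 chains of other types. ArKI mice are the knock-in genotype of the study. All animals were 3 months old and on a C57Bl/6N; 129 hybrid background, and the knock-in is in the germ line, so that every cell type of the tissues carried it. The comparisons address how gene expression in each tissue differs between the genotypes. The IS and the caput were each represented by 5 ArKI and 5 WT samples and the testis by 3 ArKI and 3 WT samples.

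Total counts ranged from 4125768 (ArKI caput replicate 2) to 11913469 in the epididymal samples and from 14077013 to 21376604 in the testis samples, where 3 counts corresponded to at most 0.727 CPM in any sample (CPM are counts of a gene relative to all counts of its library). Testis and epididymis were sequenced in different batches, so that tissue and batch cannot be told apart. *Lcn9*, an IS gene, marked the WT IS at 9732 to 10740 CPM and ranged from 30.9 to 988 CPM among the caput samples. Unless said otherwise, CPM values were scaled by TMM within a tissue, samples are listed from replicate 1 upward, differences are log2 fold changes of ArKI against WT with their standard error (SE), and p values, from the quasi-likelihood test of edgeR, were adjusted by Benjamini and Hochberg's method over all genes tested. A chain is said to rise or fall at an adjusted p below 0.05. Fewer cells of a type and less RNA per cell cannot be told apart in these tissue samples.

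Collagens are trimers of chains wound around one another. Fibrillar collagens (types I, II, III, V, XI, XXIV and XXVII) are secreted as procollagens, trimmed, assembled into fibrils and crosslinked, and are made mainly by fibroblasts and related mesenchymal cells. Type IV collagen instead forms the network of basement membranes, together with laminins, nidogens and perlecan, and surrounds epithelial tubules, smooth muscle and capillaries. Its chains combine in fixed sets, *Col4a1* with *Col4a2* in nearly all basement membranes, *Col4a3* and *Col4a4* with *Col4a5*, and *Col4a5* with *Col4a6*. In the epididymis, the basement membrane separates the epithelium of the duct from a layer of smooth muscle, fibroblasts and vessels.

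The tissues differed in which chains were most abundant per length of their coding transcripts. In the WT IS the highest chain was *Col6a4*, a chain of the beaded-filament type VI family, at 135 ± 13.6 CPM per kb (SD, n = 5), and its range of 111 to 143 lay above that of every other chain. It was followed by *Col1a2*, a chain of type I collagen, at 35.7 ± 3.13 CPM per kb (SD, n = 5) and by *Col18a1*, the precursor of endostatin, at 26.5 ± 1.33. *Col18a1* and *Col6a1* (25.6 ± 2.05) overlapped in the IS. In the WT caput *Col1a2* (41.2 ± 4.28 CPM per kb) and *Col6a1* (35.5 ± 2.72) overlapped at the top of the order, and *Col18a1* (26.9 ± 2.24) lay next to *Col3a1* and *Col1a1*, with overlapping ranges. In the WT testis the first chains were *Col22a1* at 42.1 ± 3.45, *Col16a1* at 32.5 ± 1.69 and *Col20a1* at 15.2 ± 0.393 CPM per kb (SD, n = 3), which are all fibril-associated collagens. *Col2a1*, the chain of cartilage collagen, followed at 14.5 ± 2.22, within a range that overlapped *Col20a1*. The plot of levels per length shows the 15 highest chains of each WT tissue.

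**Figure D1:**
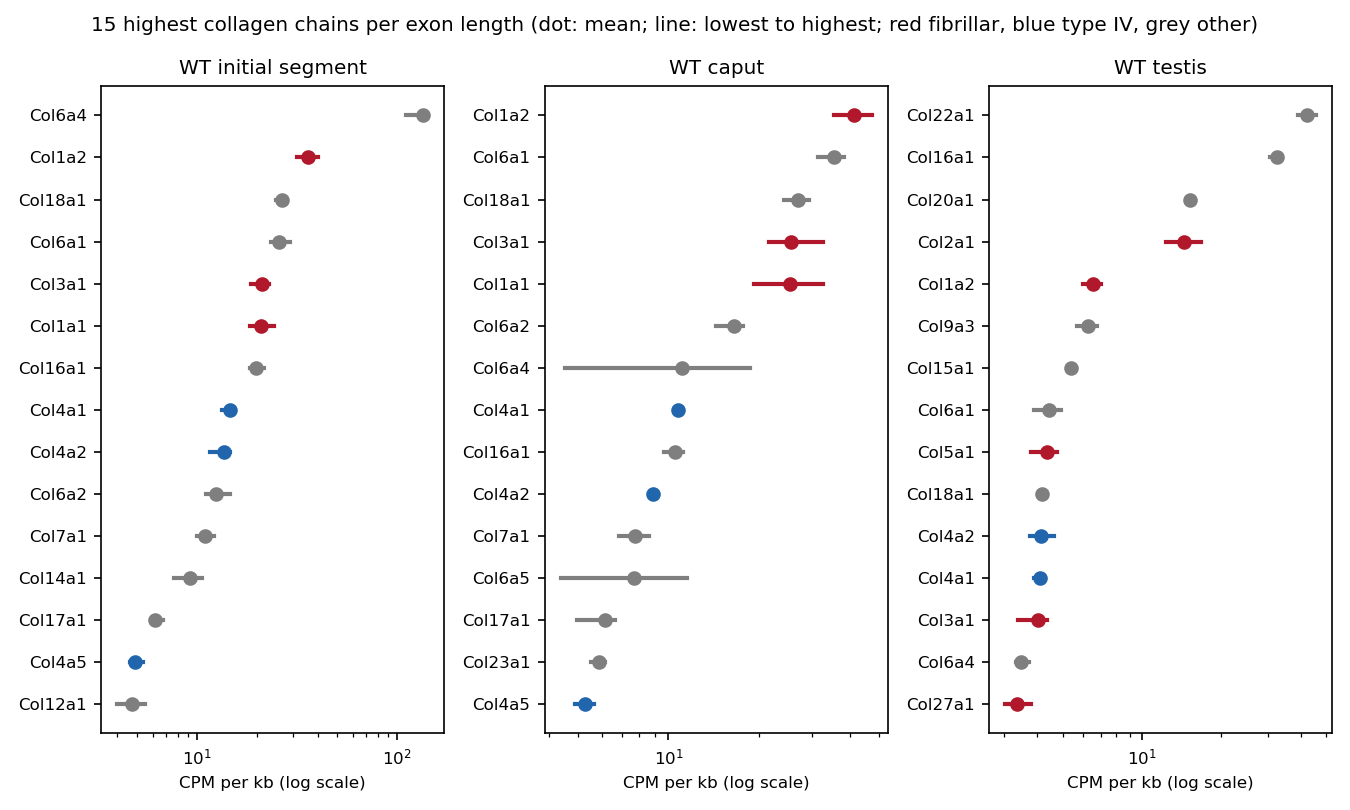
Levels of the 15 highest collagen chains in each WT tissue, in CPM per kb of coding-transcript exons on a log axis; dots are means, lines run from the lowest to the highest sample, and colours give the class. *Col6a4* led in the IS at 135 CPM per kb, *Col1a2* in the caput at 41.2 and *Col22a1* in the testis at 42.1.

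The caput and the IS of WT mice were compared directly with both segments in the same batch. Of 33 chains tested, 11 were higher and 12 lower in the caput, where 35.4% and 35.8% of all 13787 genes tested were, so the share of chains was close to that of all genes. Both segments were taken from 5 WT mice, and which samples share a mouse is not given. The fit treated the samples as independent, and with the replicate number as a block 11 chains were again higher and 12 lower. The largest tested difference was that of *Col6a4*, at 1012, 1035, 1057, 1051 and 818 CPM in the WT IS and 33.3, 63.7, 138, 125 and 48.9 CPM in the WT caput (log2 difference, caput against IS, -3.59, SE 0.41, adjusted p = 5.0e-05). No caput sample of this chain came near the IS samples. *Col28a1*, a von Willebrand factor domain collagen, reached the count minimum of the fit (10 counts at the median depth) in the IS samples alone, and its log2 difference of -3.21 is a description. Of the 32 chains that reached it in both segments, 11 were higher and 11 lower. Among the WT caput samples *Col6a4* ran from 33.3 to 138 CPM, with the highest values in replicates 3 and 4. The same replicates were the highest for *Lcn9* (988 and 879 CPM, against 72.4 to 235 in the others) and for the fibroblast gene *Pdgfra* (110.3 and 119 CPM, against 65.3 to 85.2). The part of IS tissue in the caput values of *Col6a4* was not tested. *Col13a1* (-1.09) and *Col14a1* (-0.90) were also lower in the caput, with adjusted p = 3.4e-05 and 1.5e-06. The chains most in excess in the caput were *Col27a1* (1.22, adjusted p = 2.1e-05), a fibrillar chain of cartilage and epithelia, *Col6a5* (1.11, adjusted p = 0.0058), the transmembrane chain *Col23a1* (1.06, adjusted p = 4.4e-11) and *Col20a1* (0.57, adjusted p = 0.0078). Of the type IV chains, *Col4a6* was higher and *Col4a1*, *Col4a2*, *Col4a3* and *Col4a4* were lower in the caput.

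Between the WT testis and the WT epididymis (the mean of IS and caput), 15 of 41 chains tested had more RNA in the testis and 25 had less, where 49.5% of all 16402 genes tested had more and 43.4% less. With at least 10 counts in every sample, 6 chains had more and 24 less. The count minimum was reached in enough samples only in the testis by 7 of the 15, which are therefore given as a description. Of the 30 chains that reached it in every group, 6 had more and 23 less. Both type I chains, 5 of 6 type IV chains and 5 of 6 type VI chains were lower. *Col7a1*, the anchoring fibril collagen, was furthest below the epididymis (-3.96, SE 0.10, adjusted p = 2.9e-21), at 63.3 to 113 CPM in the epididymal samples and 4.38, 4.38 and 3.55 CPM in the testis samples. Next were *Col6a2* (-3.18, adjusted p = 2.3e-17) and *Col6a4* (-3.06, adjusted p = 3.8e-05). *Col8a2*, a short-chain network collagen, reached the count minimum in 2 of 3 testis samples and was tested through the epididymis. Its log2 difference of -2.79 is a description. *Col4a4* was the chain that did not pass (-0.11, adjusted p = 0.19). On the higher side stood chains that were scarcely read in the epididymis. *Col22a1* had 4930 to 6170 counts in the WT testis samples and 1 to 19 in the WT epididymal samples (log2 difference 9.46), and *Col2a1* had 1017 to 1205 against 0 to 4. *Col19a1*, another fibril-associated chain, had 74 to 98 counts in the testis and 0 in all WT epididymal samples, which makes it at least 12.5-fold higher against 3 counts per library. *Col9a1*, a chain of cartilage collagen IX, differed by 5.13. These values set tissue and batch together. The median of all genes tested moved from -0.32 to 0.29 with the scaling chosen, and the named chains kept their direction under each scaling.

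In the ArKI IS, most fibrillar chains rose and most type IV chains fell. Of 34 chains tested in the IS, 12 rose and 10 fell, where 15% of all 13434 genes tested rose and 14.6% fell. Of the 32 chains that reached the count minimum in all samples of both genotypes, 11 rose and 10 fell. Of 9 fibrillar chains 8 rose and none fell (also none at an unadjusted p below 0.05, by DESeq2 or by limma-voom), with a median log2 fold change of 0.56. Of the 6 type IV chains 1 rose (0 by DESeq2) and 4 fell, with a median of -0.56, and of 19 other chains 3 rose and 6 fell, with a median of -0.05. The median of all genes tested was 0. The ArKI and WT samples did not overlap for 17 of the 34 chains, against 20.2% of all genes. With the study's own thresholds, an adjusted p below 0.01 and a fold change above 2, *Col11a1* rose and *Col12a1*, *Col4a6*, *Col13a1* and *Col4a5* fell, 5 of 34 chains, where 4.04% of all genes passed. With all epididymal samples in 1 fit, which then share an estimate of the spread, 7 chains rose in the IS. The plot of log2 fold changes places every tested chain of the IS, caput and testis side by side.

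**Figure D2:**
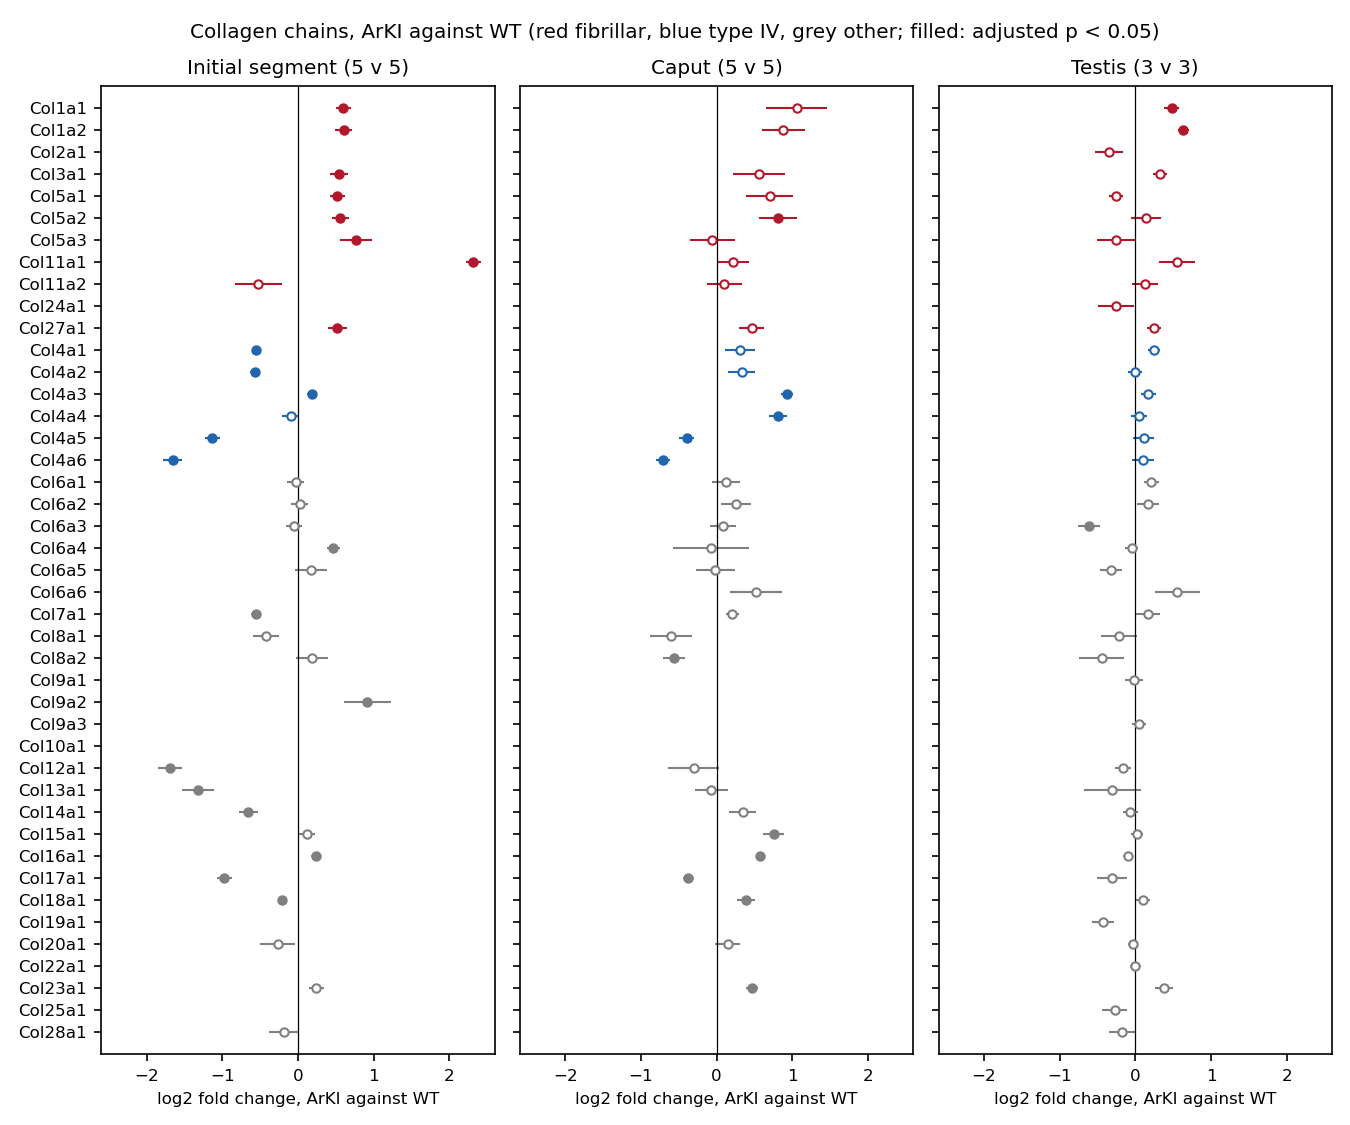
Log2 fold change of ArKI against WT for each tested collagen chain in the IS, caput and testis; bars are SE, filled points have an adjusted p below 0.05, and chains below the filter on low counts have no point. In the IS the fibrillar chains (red) lie right of 0, with *Col11a1* at 2.32 and *Col11a2* left of 0 at -0.52, and 4 of the 6 type IV chains (blue) lie left of 0 as filled points.

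The largest rise was that of *Col11a1*, the α1 chain of type XI collagen, which lies within the core of collagen fibrils. It was 8.39, 8.28, 8.11, 6.95 and 8.86 CPM in the WT IS and 39.5, 36.1, 39.4, 49.1 and 38.9 CPM in the ArKI IS. The groups were far apart, a 4.98-fold difference (log2 fold change 2.32, SE 0.10, adjusted p = 1.5e-12). Type I collagen, the main fibril of connective tissue, rose in both its chains. *Col1a1* was 110.0, 118, 144, 112 and 133 CPM in WT and 179.5, 217, 209, 169 and 159 CPM in ArKI samples (log2 fold change 0.60, SE 0.10, adjusted p = 0.0013). *Col1a2* was 168, 194, 215, 186 and 192 CPM in WT and 286, 352, 323, 251 and 234 CPM in ArKI samples (log2 fold change 0.61, SE 0.11, adjusted p = 0.0028). *Col3a1*, the chain of type III collagen in distensible tissue, was 104, 114, 127, 119.8 and 123 CPM in WT and 167, 214, 187, 154 and 131 CPM in ArKI samples (log2 fold change 0.54, SE 0.12, adjusted p = 0.0082). All ArKI samples lay above all WT samples for these 3 chains. *Col1a1* and *Col3a1* did not pass in the fit of all epididymal samples (adjusted p = 0.15 and 0.14). The chains of type V collagen, which start fibrils and limit their width, rose as well, *Col5a1* by 0.52, *Col5a2* by 0.56 and *Col5a3* by 0.77 on the log2 scale (adjusted p = 5e-04, 0.0011 and 0.0097), and so did *Col27a1* (0.52, adjusted p = 0.0034). *Col11a2*, another type XI chain, was low in both genotypes, at 1.13 to 3.49 CPM, and did not pass (log2 fold change -0.52, adjusted p = 0.23, 95% interval -1.13 to 0.09).

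**Figure D3:**
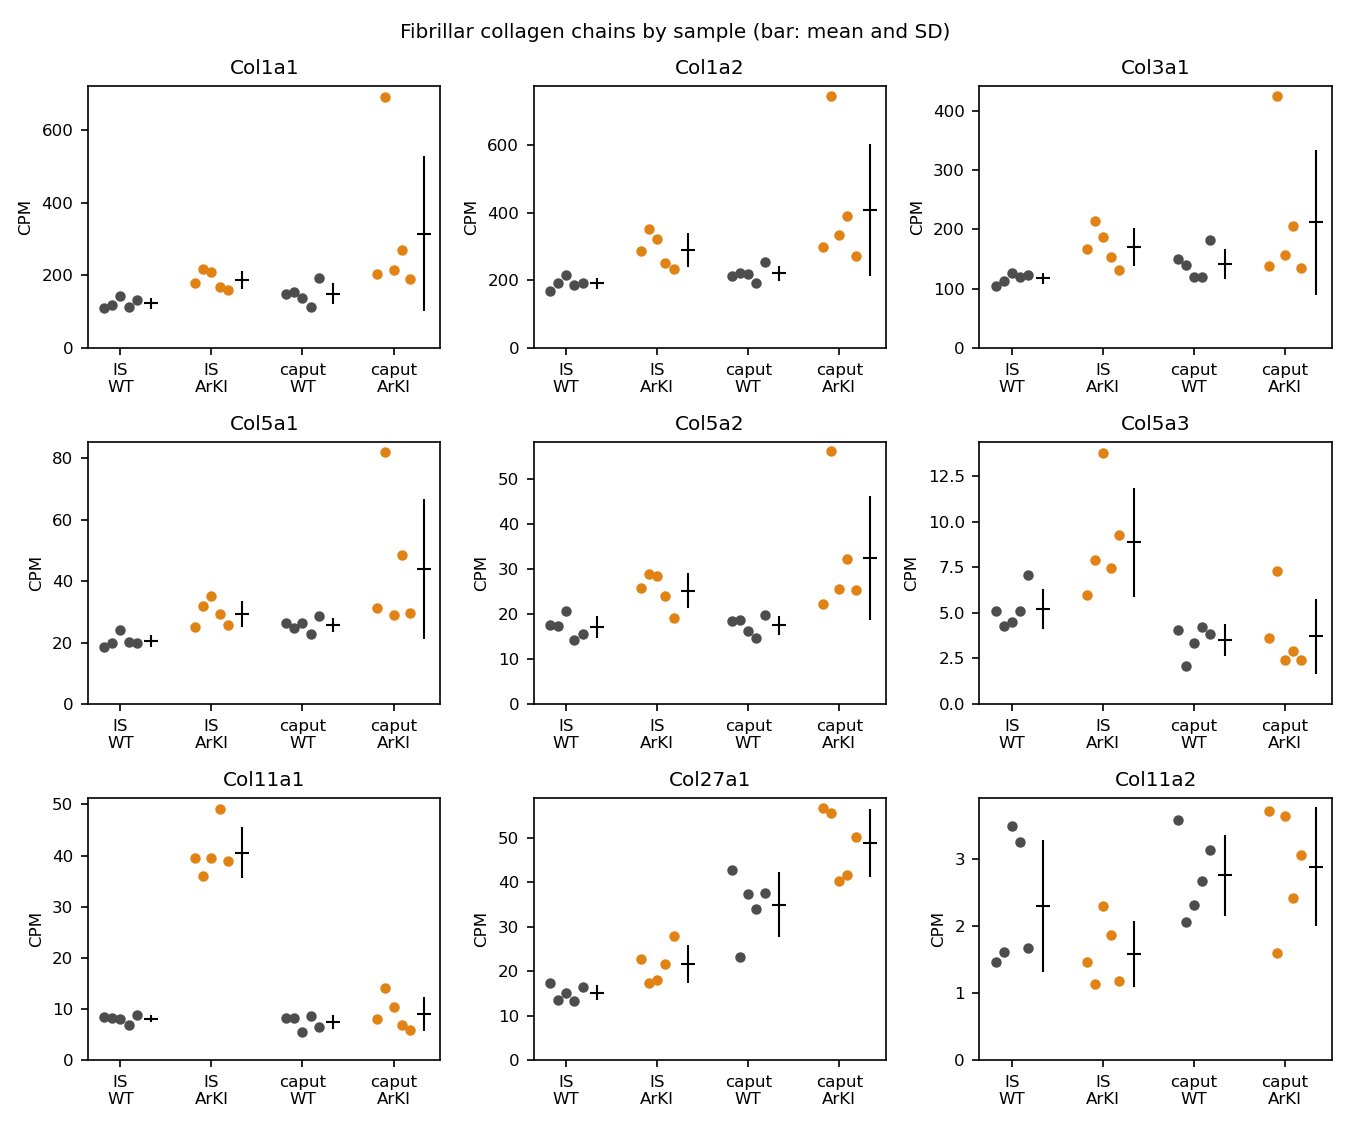
CPM of the 9 tested fibrillar chains in each epididymal sample, WT in grey and ArKI in orange, with the mean and SD as a bar beside each group; axes start at 0. *Col11a1* separates the IS genotypes at 6.95 to 8.86 against 36.1 to 49.1 CPM, and ArKI caput replicate 2 is the high point for *Col1a1* (693 CPM), *Col1a2* and *Col3a1*.

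The genes of the 6 type IV chains lie in the mouse genome as 3 head-to-head pairs, read in opposite directions from a shared region, and are shown here because the pairs moved differently. On GRCm38 the starts of *Col4a1* (minus strand) and *Col4a2* (plus strand) on chromosome 8 overlap by 22 bases, those of *Col4a4* and *Col4a3* on chromosome 1 lie 71 bases apart, and those of *Col4a6* and *Col4a5* on chromosome X lie 1308 bases apart. The stretch between the *Col4a4* and *Col4a3* starts (chr1:82586850-82586920, plus strand), the bases before the *Col4a5* start (chrX:141475169-141475384, plus strand) and those before the *Col4a6* start (chrX:141474077-141474326, minus strand) follow, with those before the start of *Col11a1* (chr3:114030290-114030539, plus strand), the chain with the largest rise. They are RefSeq sequences of GRCm38.p6 and lie outside the annotated exons of these genes. Capitals mark, on either strand, the box CCAAT, the Sp-factor box with the letters GGGCGG, and the promoter box with the letters TATAAA.
Col4a4 to Col4a3: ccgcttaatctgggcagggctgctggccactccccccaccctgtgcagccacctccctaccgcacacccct
Col4a5: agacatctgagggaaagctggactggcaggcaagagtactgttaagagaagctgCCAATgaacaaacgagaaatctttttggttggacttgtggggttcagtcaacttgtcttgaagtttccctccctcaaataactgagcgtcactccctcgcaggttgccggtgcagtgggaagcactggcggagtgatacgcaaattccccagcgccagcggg
Col4a6: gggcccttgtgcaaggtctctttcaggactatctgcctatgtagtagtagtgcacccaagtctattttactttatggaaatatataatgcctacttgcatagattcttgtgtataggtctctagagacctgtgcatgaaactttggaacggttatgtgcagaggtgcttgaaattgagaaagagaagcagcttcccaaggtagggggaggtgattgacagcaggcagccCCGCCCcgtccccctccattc
Col11a1: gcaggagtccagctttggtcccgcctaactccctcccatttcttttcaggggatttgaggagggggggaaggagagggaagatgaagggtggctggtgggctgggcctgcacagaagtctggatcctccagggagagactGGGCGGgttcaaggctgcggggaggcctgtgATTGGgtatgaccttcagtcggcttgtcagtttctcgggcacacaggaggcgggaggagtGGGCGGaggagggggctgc
The stretch of 71 bases shared by *Col4a4* and *Col4a3* has none of these letters and a GC content of 69%, the *Col4a5* stretch has 1 CCAAT, the *Col4a6* stretch 1 GGGCGG and the *Col11a1* stretch 1 CCAAT and 2 GGGCGG. RefSeq start windows of 300 bases were at hand for 35 of the 43 chains. Both-strand matches of GGGCGG were found for 22 of these chains (35.7% of all 32851 windows hold it), of CCAAT for 13 (37.4%) and of TATAAA for 5 (13.6%). A match of letters is a description of the window and not a binding site.

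In the IS both ubiquitous type IV chains fell by a like amount. *Col4a1* was 87.7, 98.3, 100.1, 100.5 and 101 CPM in WT and 66.9, 65.7, 69.7, 64.2 and 64.4 CPM in ArKI samples (log2 fold change -0.55, SE 0.05, adjusted p = 1.0e-07). *Col4a2* was 86.2, 93.2, 94.9, 75.1 and 90.0 CPM in WT and 60.0, 60.4, 63.4, 56.0 and 55.3 CPM in ArKI samples (log2 fold change -0.57, SE 0.06, adjusted p = 8.2e-07). The groups of neither chain overlapped. The X-linked pair had larger log2 fold changes. *Col4a5* was 32.7, 31.0, 32.2, 35.0 and 30.2 CPM in WT and 15.2, 16.8, 16.6, 12.7 and 11.9 CPM in ArKI samples, 2.19-fold lower (log2 fold change -1.13, SE 0.10, adjusted p = 2.9e-08). *Col4a6* was 23.2, 23.2, 19.6, 22.3 and 20.2 CPM in WT and 8.21, 8.48, 5.02, 6.26 and 6.22 CPM in ArKI samples, 3.15-fold lower (log2 fold change -1.65, SE 0.12, adjusted p = 6.1e-09). ArKI samples lay well below WT samples for both. The chromosome 1 pair lay closest to its WT level. *Col4a3* was 39.2, 39.0, 37.6, 35.6 and 35.5 CPM in WT and 41.7, 43.7, 45.5, 36.1 and 43.8 CPM in ArKI samples, and its small rise (log2 fold change 0.18, SE 0.07, adjusted p = 0.042) was lost without any of ArKI replicates 1, 2, 3 and 5 or WT replicates 2, 3, 4 and 5 (adjusted p = 0.054 to 0.11). It was lost as well by DESeq2 (adjusted p = 0.064), with a minimum of 1 count (adjusted p = 0.059) and with all epididymal groups in 1 fit (adjusted p = 0.07). *Col4a4*, at 36.1, 31.9, 40.2, 37.0 and 35.9 CPM in WT and 29.1, 35.9, 42.6, 25.7 and 34.6 CPM in ArKI samples, overlapped between the genotypes (-0.10, adjusted p = 0.56, 95% interval -0.31 to 0.12). Within each sample, the ratio of *Col4a3* to *Col4a5*, which no scaling between samples can change, was 1.02 to 1.26 in the WT IS and 2.6 to 3.69 in the ArKI IS. Summed over all 6 chains, type IV RNA was 305.1 to 325 CPM in the WT and 201 to 243 CPM in the ArKI IS.

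**Figure D4:**
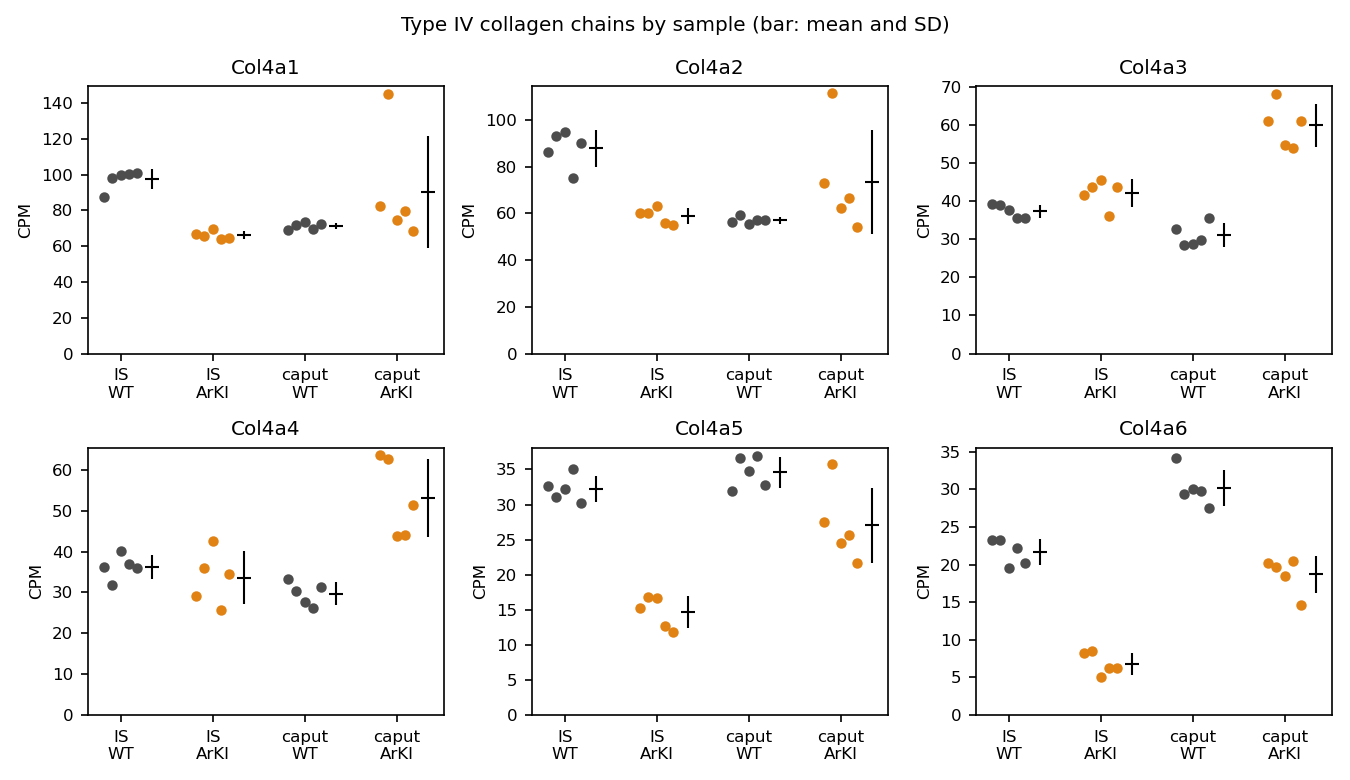
CPM of the 6 type IV chains in each epididymal sample, WT in grey and ArKI in orange, with the mean and SD as a bar beside each group; axes start at 0. *Col4a5* and *Col4a6* are lower in ArKI samples of both segments, *Col4a1* and *Col4a2* are lower in the ArKI IS, and *Col4a3* and *Col4a4* are higher in the ArKI caput.

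Of the other types, 6 chains fell and 3, *Col9a2* included, were counted as higher in the ArKI IS. *Col12a1*, a fibril-associated chain of dense connective tissue and smooth muscle, was 51.3, 61.1, 60.3, 66.6 and 48.3 CPM in WT and 22.0, 23.9, 13.8, 14.6 and 14.3 CPM in ArKI samples, 3.22-fold lower (log2 fold change -1.69, SE 0.16, adjusted p = 1.5e-05). *Col13a1*, a transmembrane collagen of cell adhesion sites, was 7.90, 9.54, 7.61, 6.10 and 5.73 CPM in WT and 3.58, 2.26, 3.44, 3.89 and 1.76 CPM in ArKI samples (log2 fold change -1.32, SE 0.21, adjusted p = 0.00011). *Col17a1*, the transmembrane collagen of hemidesmosomes, was 37.8, 34.3, 34.7, 33.0 and 33.3 CPM in WT and 19.2, 20.6, 12.6, 16.8 and 18.4 CPM in ArKI samples (log2 fold change -0.97, SE 0.10, adjusted p = 3.0e-07). All 3 separated the genotypes. Smaller falls were those of *Col14a1* (-0.66), which binds fibril surfaces, of *Col7a1* (-0.55) and of *Col18a1* (-0.22, adjusted p = 0.002). *Col6a4* and *Col16a1* rose. *Col6a4*, the chain with the highest level per length in the IS, was 1012, 1035, 1057, 1051 and 818 CPM in WT and 1456, 1106, 1377, 1414 and 1486 CPM in ArKI samples (0.47, adjusted p = 0.0016). *Col9a2*, at 0.374 to 2.20 CPM, was near the limit of 3 counts. It reached the count minimum in 5 ArKI and 2 WT samples and so was tested only through the group where it was higher, and its log2 fold change of 0.91 is given as a description. Of the other type VI chains, 3 did not pass, with log2 fold changes of -0.03 for *Col6a1*, 0.03 for *Col6a2* and -0.05 for *Col6a3* and 95% intervals within -0.25 to 0.24. Of the chains not yet named, *Col8a1* (-0.42, adjusted p = 0.067), a network chain of vessel walls, and *Col23a1* (0.24, adjusted p = 0.069) came nearest to the threshold, and *Col15a1*, *Col20a1*, *Col28a1*, *Col6a5* and *Col8a2* lay between -0.27 and 0.19.

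The genes that make, trim, crosslink and bind collagen were taken from lists of known roles. The counts below stand beside shares of 15% rising and 14.6% falling among all genes tested in the IS. Of 15 laminin, nidogen and other basement membrane partners tested in the IS, 13 fell and 1 rose, with a median of -0.43. The largest changes were those of the laminin chains *Lama1* (-1.19, adjusted p = 4.0e-08), *Lamc3* (-0.98, adjusted p = 1.2e-05) and *Lama3*, the one that rose (0.87, adjusted p = 2.9e-07). Of 15 fibril-binding genes 5 rose and 2 fell, with *Dpt*, which is dermatopontin, at 1.44, *Aspn* at 1.24 and *Tnxb* at 0.83. Of 5 propeptide cleavage genes 2 rose, the procollagen protease *Adamts2* (0.82) and *Pcolce* (0.73), the enhancer of procollagen C-proteinase, while *Bmp1*, which encodes that proteinase, fell (-0.24). Of 7 crosslinking genes the transglutaminase *Tgm2* (log2 fold change 2.38, SE 0.06, adjusted p = 2.9e-15) and lysyl oxidase *Lox* (0.62, adjusted p = 0.019) rose and *Loxl3* fell (-0.25), though not by DESeq2. Of 18 modification and folding genes 4 rose and 4 fell, and the prolyl hydroxylase *P4ha2* (-0.93, adjusted p = 3.0e-10) was the largest of them. The list of breakdown genes holds proteases and also their inhibitors. Of the 9 tested 1 rose (0 by limma-voom), the inhibitor *Timp1* (0.62, adjusted p = 0.044). Another 3 fell, among them *Timp3* (-0.92), an inhibitor bound in the matrix. Of 7 collagen receptors 1 rose, *Ddr1* (0.69), and 4 fell, including *Itga2* (-0.80) and *Itga1* (-0.54). Of 18 genes of the TGF-β axis, a main inducer of fibrillar collagen, 2 rose and 8 fell. The latent TGF-β binding protein *Ltbp1* rose (2.43, adjusted p = 1.7e-08) and the ligand *Tgfb2* fell (-0.50, adjusted p = 0.0098).

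Cell type markers moved beside these changes in the IS, where 15% of all genes tested rose and 14.6% fell. Of 10 fibroblast markers 7 rose and 2 fell, and their summed level was 776 to 825 CPM in the WT and 848 to 975 CPM in the ArKI IS. The most abundant of them, *Pdgfra*, fell (-0.23, adjusted p = 0.001), and the next, *Cd34*, rose (0.82, adjusted p = 4.2e-05), so that the sum mixes both directions. Of 8 smooth muscle markers 7 fell and none rose (median -0.96). *Actg2*, the most abundant of them, did not pass (-0.095, adjusted p = 0.18). It made up most of their summed level, which was 3557 to 3804 CPM in WT and 2932 to 3492 CPM in ArKI samples. All 8 endothelial markers fell, from 176 to 212 CPM in WT to 119.9 to 143 CPM in ArKI samples. Of the other lists, 3 of 6 pericyte, 4 of 8 macrophage, 3 of 5 basal cell and 5 of 8 principal cell markers fell and none rose, and 0 of 3 lymphocyte markers passed by edgeR (0 at an unadjusted p below 0.05, 0 by DESeq2 and 0 by limma-voom). Of 3 Leydig cell markers 1 rose, of 4 Sertoli cell markers 2 rose and 1 fell, of 3 nerve and glia markers 1 rose, and both sperm markers tested fell. Leydig and Sertoli cells are cells of the testis, and their lists are not read as cell types in the epididymis. The Sertoli cell list summed to 984 to 1658 CPM in the WT IS and 1093 to 1139 CPM in the WT testis. By DESeq2, 7 of the 8 endothelial markers fell. No endothelial or smooth muscle marker was at 0 in all samples of a group. The part of any cell type in the fall of the type IV, laminin or other chains, or in the rise of the fibrillar chains, was not tested.

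In the caput, ArKI replicate 2, the library with the lowest depth, stood apart for fibrillar chains. Its fibrillar sum was 2080 CPM, and the ArKI median was 817 CPM with the range of WT samples at 512 to 729 CPM. It was also the highest ArKI caput sample for the summed smooth muscle (1648 CPM), fibroblast (406 CPM) and macrophage (264 CPM) markers. The counts of chains in the caput are therefore given with and without it, as are the lists whose counts changed. With it, 7 of 33 chains tested rose and 4 fell, where 13.7% and 14% of all 13726 genes tested did. Without it, 10 of 34 chains rose and 6 fell, where 14% and 13.3% of genes did. Of the 32 chains that then reached the count minimum in at least 4 samples of each genotype, 9 rose and 6 fell, since *Col9a3* had reached it through ArKI samples alone. Of the 33 chains 10 had groups that did not overlap, against 20.1% of all genes, and 0 passed the study's thresholds (0 also by DESeq2 and by limma-voom, and 0 with an unadjusted p), where 4.98% of all genes passed.

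The fibrillar chains of the caput had a median log2 fold change of 0.56 over 9 chains, of which 1 rose with all libraries (4 by DESeq2) and 3 without ArKI replicate 2. *Col1a1* was 149.8, 155, 137, 114 and 194 CPM in WT and 204, 693, 214, 271 and 190.2 CPM in ArKI samples. Its difference did not pass with all libraries (log2 fold change 1.06, SE 0.40, adjusted p = 0.089) and passed without that replicate at a smaller size (0.55, adjusted p = 0.043) and, with all libraries, by DESeq2 (adjusted p = 0.029). *Col1a2* was 213, 223, 219.9, 191 and 254 CPM in WT and 297, 745, 334, 388 and 272 CPM in ArKI samples (log2 fold change 0.88, SE 0.29, adjusted p = 0.051), with every ArKI sample above every WT sample, as for *Col5a1* (0.70, adjusted p = 0.14, and 0.42, adjusted p = 0.073, without ArKI replicate 2) and *Col5a2*. *Col1a2* was 0.55 without ArKI replicate 2 (adjusted p = 0.0027) and 1.00 without ArKI replicate 5 (adjusted p = 0.037). *Col5a2* was 18.4, 18.6, 16.2, 14.6 and 19.8 CPM in WT and 22.3, 56.1, 25.7, 32.3 and 25.4 CPM in ArKI samples (log2 fold change 0.82, SE 0.25, adjusted p = 0.039). Without ArKI replicate 2 it was 0.59 (adjusted p = 0.0003), and without ArKI replicate 4 or any of the WT replicates it did not pass (adjusted p = 0.06 to 0.088). *Col3a1* did not pass with the replicate (0.56, adjusted p = 0.29) or without it (0.16, adjusted p = 0.57). *Col11a1*, the chain with the largest rise in the IS, was 8.17, 8.26, 5.57, 8.61 and 6.51 CPM in the WT caput and 8.03, 14.2, 10.4, 6.89 and 5.86 CPM in the ArKI caput, and its groups overlapped (0.22, adjusted p = 0.5, 95% interval -0.20 to 0.64; 0.06 without ArKI replicate 2).

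The type IV chains split by gene pair in the caput, and the 4 chains that passed did so without ArKI replicate 2 as well. *Col4a3* was 32.8, 28.6, 28.7, 29.8 and 35.7 CPM in WT and 61.2, 68.2, 54.8, 54.1 and 61.1 CPM in ArKI samples, 1.90-fold higher (log2 fold change 0.93, SE 0.08, adjusted p = 1.5e-07; 0.89 without that replicate). Its partner *Col4a4* was 33.2, 30.2, 27.7, 26.1 and 31.4 CPM in WT and 63.6, 62.5, 43.8, 44.1 and 51.4 CPM in ArKI samples (log2 fold change 0.81, SE 0.12, adjusted p = 0.00026; 0.76 without it). All ArKI samples were above all WT samples for both chains. *Col4a6* went the other way, at 34.1, 29.4, 30.0, 29.8 and 27.5 CPM in WT and 20.3, 19.6, 18.5, 20.5 and 14.6 CPM in ArKI samples (log2 fold change -0.71, SE 0.09, adjusted p = 2.0e-05). *Col4a5* was 32.0, 36.6, 34.8, 36.9 and 32.8 CPM in WT and 27.6, 35.8, 24.5, 25.7 and 21.6 CPM in ArKI samples (log2 fold change -0.40, SE 0.10, adjusted p = 0.0092). Its groups overlapped through ArKI replicate 2, the highest ArKI value, and its fall was -0.48 without that library (adjusted p = 9.3e-05). *Col4a1* was 69.2, 71.7, 73.4, 69.9 and 72.6 CPM in WT and 82.3, 145, 74.6, 79.9 and 68.6 CPM in ArKI samples, and neither it (0.31, adjusted p = 0.31, 95% interval -0.08 to 0.69) nor *Col4a2* (0.33, adjusted p = 0.21, 95% interval -0.01 to 0.68) passed. They were 0.09 and 0.16 without ArKI replicate 2 (adjusted p = 0.25 and 0.097). The ratio of *Col4a3* to *Col4a5* within a sample was 0.78 to 1.09 in the WT and 1.90 to 2.82 in the ArKI caput. *Col4a3* and *Col4a4* together made up 22.4% to 26.1% of type IV CPM in WT caput samples against 29.5% to 41.4% in ArKI caput samples. *Col4a5* and *Col4a6* made up 23.4% to 26.7% in WT and 12.5% to 15.9% in ArKI caput samples. A transcript of the opposite strand shares 5.65% of the *Col4a3* exon bases, and whether the counting used strand is not given in the sources used here.

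Of 18 chains of other types tested in the caput, 4 rose and 2 fell. *Col15a1*, a basement membrane zone collagen of muscle and vessels, was 23.3, 22.1, 17.4, 15.3 and 26.6 CPM in WT and 34.8, 42.7, 30.2, 36.8 and 35.1 CPM in ArKI samples (log2 fold change 0.75, SE 0.14, adjusted p = 0.0012). *Col16a1*, a fibril-associated chain, was 50.3, 56.4, 51.3, 58.4 and 57.5 CPM in WT and 86.0, 89.0, 82.3, 76.4 and 77.0 CPM in ArKI samples (log2 fold change 0.58, SE 0.06, adjusted p = 2.1e-06). Both separated the genotypes, as did *Col23a1* (0.47, adjusted p = 0.00018). *Col18a1*, which rose, overlapped (0.39, adjusted p = 0.028). *Col8a2*, a network collagen of basement membranes, was 10.4, 10.3, 10.3, 9.70 and 7.09 CPM in WT and 4.92, 5.93, 7.28, 7.83 and 6.19 CPM in ArKI samples (log2 fold change -0.56, SE 0.15, adjusted p = 0.0079), with WT replicate 5 among the ArKI values. *Col17a1* was 34.7, 35.5, 27.8, 36.6 and 37.1 CPM in WT and 27.1, 27.4, 27.3, 26.4 and 25.4 CPM in ArKI samples and fell with no overlap (log2 fold change -0.37, SE 0.08, adjusted p = 0.0012). *Col12a1* was 62.1, 56.7, 45.2, 50.6 and 42.8 CPM in WT and 34.9, 93.5, 31.6, 34.5 and 29.2 CPM in ArKI samples, where replicate 2 lay above all others. It did not pass with that library (-0.30, adjusted p = 0.57) and fell without it (-0.67, adjusted p = 0.00026). Likewise *Col8a1* was -0.60 (adjusted p = 0.13) with and -0.89 (adjusted p = 0.00023) without it. *Col6a4* was 56.8, 33.8, 147, 64.9 and 78.6 CPM in the ArKI caput and did not pass (-0.07, adjusted p = 0.94, 95% interval -1.05 to 0.91; 0.10 without replicate 2). The other type VI chains (*Col6a1*, *Col6a2*, *Col6a3*, *Col6a5* and *Col6a6*) lay between -0.02 and 0.52, and none of them passed, nor did *Col7a1* (0.20, adjusted p = 0.096), *Col13a1* (-0.07), *Col14a1* (0.34) or *Col20a1* (0.15). With ArKI replicate 2 left out, *Col6a1*, *Col6a2* and *Col6a3* lay between -0.08 and 0.07, *Col6a5* at 0.04, *Col13a1* at -0.05 and *Col14a1* at 0.21, and none of these passed.

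Among the genes acting on collagen in the caput, more rose than fell in the lists of fibril-binding, cleavage and crosslinking genes. Of all genes tested in the caput, 13.7% rose and 14% fell, and the counts of lists and markers below stand beside these shares. Of 16 fibril-binding genes 9 rose and 1 fell (also 9 and 1 without ArKI replicate 2), led by *Dpt* (1.29), *Aspn* (1.28) and fibronectin, *Fn1* (1.21). Of 6 propeptide cleavage genes 4 rose, the metalloprotease *Mep1a* most (2.18, adjusted p = 3.6e-06), with *Adamts2* (1.00) and *Pcolce* (0.86). Of 7 crosslinking genes 3 rose, which were *Lox* (1.14, adjusted p = 0.015), *Tgm2* (1.11, adjusted p = 0.0047) and *Loxl1* (0.93, adjusted p = 0.045). Of 18 modification and folding genes 7 rose and 3 fell, with the collagen galactosyltransferase *Glt25d2* (1.09) and the prolyl isomerase *Fkbp10* (0.98) among the rises and *P4ha2* (-0.98) among the falls. Without ArKI replicate 2, 7 rose and 2 fell, and *P4ha2* did not pass (-0.92, adjusted p = 0.075). Of 15 basement membrane partners 2 rose and 3 fell, and *Nid2* (-0.99, adjusted p = 1.7e-06), *Lama3* (0.69, adjusted p = 8.7e-07) and *Lamb1* (0.62, adjusted p = 0.021) changed most. The protease inhibitor *Timp1* (1.48, adjusted p = 6.2e-08) was the largest rise of 9 breakdown genes, of which 3 rose and 3 fell. Without ArKI replicate 2, 3 breakdown genes rose and 1 fell, 2 basement membrane partners rose and 4 fell, and of 7 cleavage genes then tested 4 rose and 1 fell. Of 8 receptors 1 rose and 1 fell, and of 18 TGF-β axis genes 5 rose and 4 fell. No smooth muscle marker (0 of 8), macrophage marker (0 of 8), basal cell marker (0 of 5) or lymphocyte marker (0 of 1) passed by edgeR in the caput, or by DESeq2 or limma-voom, and at an unadjusted p below 0.05 there were 0, 1, 1 and 0. In turn, 3 of 10 fibroblast markers rose (5 by DESeq2) and 1 fell, 2 of 8 endothelial markers rose and 1 fell, and 1 of 6 pericyte markers rose (0 by DESeq2). Without ArKI replicate 2, the fall of the fibroblast marker *Gli1* (adjusted p = 0.06) and the rise of the pericyte marker *Cspg4* (adjusted p = 0.058) did not pass. Of 8 principal cell markers 1 fell, of 4 Sertoli cell markers 1 rose and 1 fell, of 2 Leydig cell markers 1 rose, and of 3 nerve and glia markers 1 fell. The Sertoli cell list summed to 25220 to 30690 CPM in the WT caput against 1093 to 1139 CPM in the WT testis. It does not mark Sertoli cells here. The 6 sperm markers tested fell, from a sum of 202 to 315 CPM in the WT to 34.2 to 94.0 CPM in the ArKI caput. The part of these cell types in the collagen values was not tested. *Dpt* is a gene that the study listed from the same samples.

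Whether the ArKI effect differed between caput and IS was tested by an interaction term over the 20 epididymal samples. The effect was more positive in the caput for 14 of 36 chains tested and more negative for 1, where 7.38% and 7.77% of all 14329 genes tested were. The methods give 5 mice per genotype for both segments, and the fit treated all samples as independent. Which samples share a mouse is not given, and with the replicate number as a block 14 chains were more positive and 2 more negative. All 6 type IV chains were among the 14, with differences (caput effect minus IS effect, log2) of 0.84 for *Col4a1*, 0.89 for *Col4a2*, 0.74 for *Col4a3*, 0.90 for *Col4a4*, 0.73 for *Col4a5* and 0.94 for *Col4a6* (adjusted p = 1.8e-05 to 0.0083). Without ArKI caput replicate 2 they were 0.64 to 0.93, and each passed. The fall of *Col4a5* and *Col4a6* was thus larger in the IS, and the rise of *Col4a3* larger in the caput. The chain with the opposite sign was *Col11a1* (-2.13, SE 0.24, adjusted p = 1.3e-06), which rose in the IS. The largest differences after it were those of *Col12a1* (1.37, adjusted p = 0.026), *Col13a1* (1.24, adjusted p = 0.0072) and *Col14a1* (0.99, adjusted p = 0.0058). *Col12a1* depended on single libraries, at 1.01 without ArKI caput replicate 2 (adjusted p = 0.0024) and 1.29 without ArKI IS replicate 5 (adjusted p = 0.051). The other fibrillar chains did not pass, with 0.44 for *Col1a1* (95% interval -0.38 to 1.26), 0.27 for *Col1a2* (-0.34 to 0.87) and 0.00 for *Col3a1* (-0.73 to 0.74). Without ArKI caput replicate 2 these values were -0.06, -0.06 and -0.39, and none passed (adjusted p = 0.89, 0.86 and 0.26), and those of *Col5a1* and *Col5a2* moved from 0.17 and 0.25 to -0.11 and 0.03. Without ArKI caput replicate 2 the second chain with a more negative effect in the caput was *Col5a3* (-1.11, adjusted p = 0.019). Of the basement membrane partners, 7 of 15 had a more positive effect in the caput and none a more negative effect, as had 6 of 8 smooth muscle, 5 of 8 endothelial, 3 of 8 macrophage, 2 of 6 pericyte, 2 of 5 basal cell and 1 of 10 fibroblast markers, whose part in the collagen values was not tested.

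**Figure D5:**
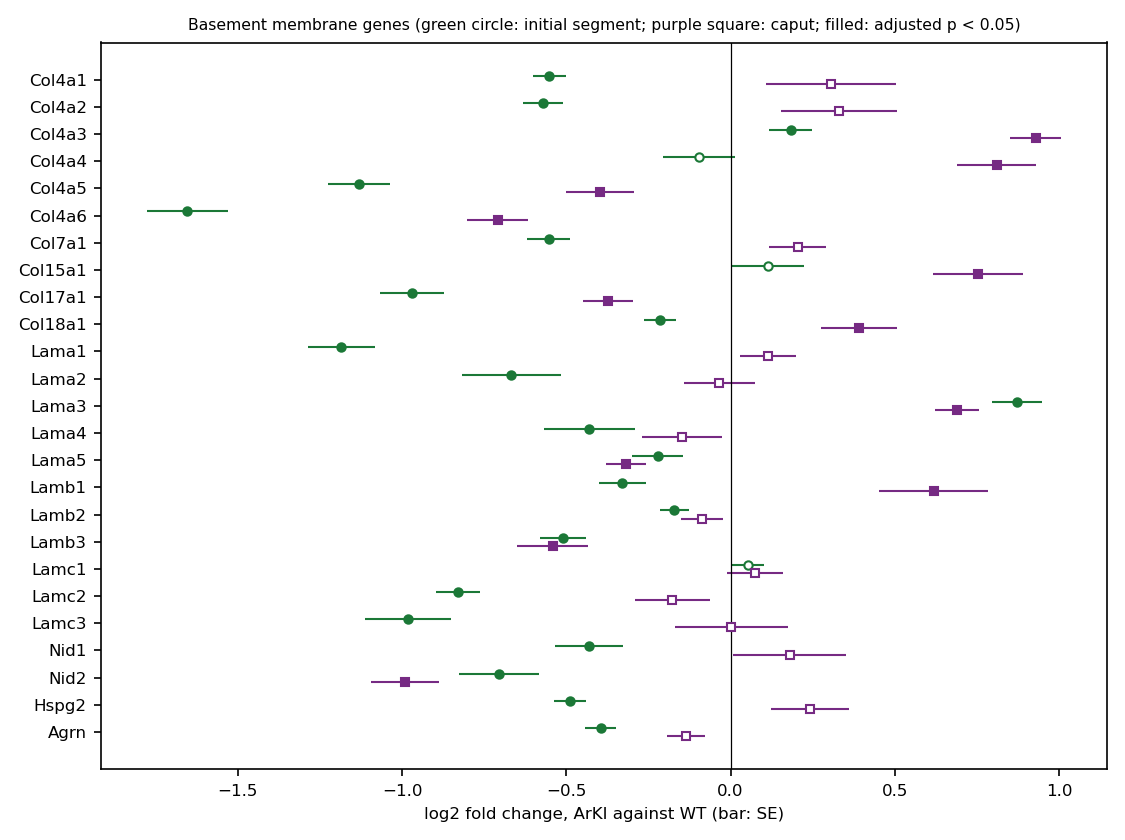
Log2 fold change of ArKI against WT for type IV chains, further chains of the basement membrane zone and their partner genes, in the IS (green circles) and caput (purple squares); bars are SE and filled points have an adjusted p below 0.05. *Col4a6* lies at -1.65 in the IS and -0.71 in the caput, while *Col4a3* lies at 0.18 and 0.93.

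In the testis, 2 of 41 chains tested rose and 1 fell in ArKI mice, where 1.64% and 0.328% of all 15838 genes tested did. The groups did not overlap for 10 of the chains, against 17.8% of all genes, and 0 chains passed the study's testis thresholds (adjusted p below 0.2 and fold change above 2; 0 also by DESeq2, by limma-voom and with an unadjusted p), where 0.833% of all genes passed. Both rises were of type I collagen. *Col1a2* was 37.4, 32.1 and 35.0 CPM in WT and 54.1, 54.1 and 54.5 CPM in ArKI samples (log2 fold change 0.63, SE 0.08, adjusted p = 1.6e-05), and *Col1a1* was 15.8, 15.2 and 18.1 CPM in WT and 24.1, 21.8 and 22.9 CPM in ArKI samples (log2 fold change 0.48, SE 0.10, adjusted p = 0.0057). Neither chain overlapped between the genotypes. The rest of the fibrillar chains lay between -0.35 for *Col2a1* and 0.55 for *Col11a1* (adjusted p = 0.5 and 0.31). *Col3a1* was 24.3, 18.9 and 24.1 CPM in WT and 27.8, 27.9 and 29.1 CPM in ArKI samples and did not pass, although its groups did not overlap (0.33, adjusted p = 0.088, 95% interval 0.14 to 0.52). *Col6a3*, a type VI chain, was 9.0, 6.46 and 8.25 CPM in WT and 4.70, 5.37 and 5.48 CPM in ArKI samples (log2 fold change -0.61, SE 0.15, adjusted p = 0.025). Its fall did not pass without WT replicate 1 or 3 or ArKI replicate 1 or 2 (adjusted p = 0.083 to 0.14), or by DESeq2 (adjusted p = 0.067). None of the 6 type IV chains passed by edgeR, DESeq2 or limma-voom (1 at an unadjusted p below 0.05, as had 13.1% of all genes), with log2 fold changes from 0.00 for *Col4a2* to 0.25 for *Col4a1* (95% interval 0.08 to 0.41), whose groups did not overlap, and *Col4a6* at 0.10 (95% interval -0.18 to 0.38). *Col22a1*, the most abundant chain of the testis per length, was 370.2, 411 and 350.4 CPM in WT and 396, 402 and 338 CPM in ArKI samples (0.00, adjusted p = 1, 95% interval -0.14 to 0.14).

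Of the other genes of the pathway in the testis, *Pcolce* rose (log2 fold change 1.09, SE 0.07, adjusted p = 2.3e-09), the one of 7 propeptide cleavage genes that passed. Among all genes tested in the testis, 1.64% rose and 0.328% fell. Of 16 fibril-binding genes 4 rose and none fell, with *Omd* at 1.39, *Bgn* at 0.70 and *Ogn* at 0.64. The protease inhibitor *Timp1* (1.49) and the collagen-cleaving cathepsin *Ctsk* (0.99) rose among 9 breakdown genes (1 by DESeq2). *Tgm2* (0.55) rose among 7 crosslinking genes and *Ctgf* (0.82, adjusted p = 5.8e-07) among 18 TGF-β axis genes. Of 15 basement membrane partners *Lamb2* rose (0.82, adjusted p = 6.5e-06) and *Nid1* fell (-0.35, adjusted p = 0.03), and none of 17 modification and folding genes or 8 receptors passed by edgeR, DESeq2 or limma-voom (5 and 1 at an unadjusted p below 0.05). Of the cell type markers, 2 of 6 Leydig cell, 1 of 8 smooth muscle and peritubular myoid and 1 of 8 macrophage markers (0 by DESeq2) rose and 1 of 6 principal cell markers fell. None of 9 fibroblast, 8 endothelial, 6 pericyte, 3 lymphocyte, 4 basal cell, 6 Sertoli cell, 8 sperm or 5 nerve and glia markers passed by edgeR, DESeq2 or limma-voom, and at an unadjusted p below 0.05 there were 0, 2, 1, 0, 0, 0, 2 and 1. Their part in the collagen values was not tested.

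The chains that were not tested had too few counts. In the IS these were 9 chains, *Col10a1* and *Col19a1* at 0 counts in every sample and *Col2a1*, *Col6a6*, *Col9a1*, *Col9a3*, *Col22a1*, *Col24a1* and *Col25a1* at up to 13 counts. In the caput they were 10 chains with up to 24 counts (*Col2a1*, *Col9a1*, *Col9a2*, *Col9a3*, *Col10a1*, *Col19a1*, *Col22a1*, *Col24a1*, *Col25a1* and *Col28a1*), and in the testis they were *Col9a2*, at 1 to 7 counts, and *Col10a1*. *Col10a1* had 0 counts in all 26 samples of the 3 tissues. Without ArKI replicate 2, *Col9a3* entered the caput fit, but through its 4 ArKI samples alone, as no WT sample reached the count minimum, so that no difference is read from it. In the annotation, *Col9a3* shares 6.07% of its exon bases with *Tcfl5* on the opposite strand, the largest such share of any chain.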

How the data were processed

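Total RNA of 26 tissue samples was sequenced as 50 bp single-end reads. Per the labels and the methods, the authors aligned the reads to mm10 with STAR v2.5.2b and deposited raw counts per RefSeq gene, with bcl2fastq 1.8.4 and Subread 1.5.1 in the submitters' processing notes. The library kit is named as TruSeq RNA v2 in the labels and as a stranded TruSeq kit in the methods, and whether counting used strand is not given in the sources used here. Without strand, genes overlapping on opposite strands cannot be told apart.

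Groups were taken from the labels. Each comparison was fitted over all genes passing filterByExpr (minimum count 10, minimum total 15) with TMM factors and edgeR 4.0.16 glmQLFit and glmQLFTest (robust) in R 4.3.3, with Benjamini-Hochberg adjustment. The ArKI effect was fitted per tissue, the segment by genotype interaction over 20 samples, and the WT tissues against one another. DESeq2 1.42.0 and limma-voom (limma 3.58.1), other scalings, filters and thresholds, a replicate block, 1 fit of all epididymal groups and each sample left out were the alternatives. The ROTS test of the study was not run. The fit was tested on simulated data with known changes. Lengths, pairs and overlaps came from GENCODE vM21 (GRCm38), sequences from RefSeq GRCm38.p6. Levels per kb used the exons of basic protein-coding transcripts. Limits of 3 counts cover counting error only.

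The members and lists were chosen with earlier results of these data known. Chosen for statistics were the 5 largest rises and falls that passed in each ArKI comparison (4 in each direction elsewhere), type I, III and IV chains, and the 3 chains highest per length. Not all of these are printed with SE and sample values, *Col5a3* in the IS among them. From each list up to 3 genes that passed with the largest changes were named. Replicates were labelled as separate samples. The methods give 5 mice per genotype for the IS and caput alike, and the labels do not say which samples share a mouse, so that fits over both segments treat samples of a mouse as independent. No pair of samples agreed within sampling noise. Col21a1 was not analysed here, and the chain listed as *Emid2* was outside the naming rule. The RNA level of the targeted gene is not reported here.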

Additional observations from a re-analysis of the deposited data

Results flagged for a closer look

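Of the 58 groups of 5 samples examined over the chains chosen for statistics in the IS and caput, 8 held a sample set far apart from the rest by Dixon's test. The chains were read in the same libraries, so the groups are not independent and their number is not set against chance. ArKI caput replicate 2 was the far sample 4 times, always as the highest of its group, at 693 CPM for *Col1a1*, 745 CPM for *Col1a2*, 425 CPM for *Col3a1* and 145 CPM for *Col4a1*. It was also the ArKI caput library with the highest summed smooth muscle, fibroblast, endothelial and macrophage markers and the fewest counts, and the part of these in its collagen values was not tested. In the ArKI IS, replicate 4 was the highest for *Col11a1* (49.1 CPM), the chain with the largest rise, which was 2.24 on the log2 scale without that library. Among WT samples the far values were low ones, of *Col4a1* in IS replicate 1 (87.7 CPM), *Col8a2* in caput replicate 5 (7.09 CPM) and *Col17a1* in caput replicate 3 (27.8 CPM).

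For 15 chains the ArKI effect differed between the segments by the interaction term of edgeR's quasi-likelihood test. The log2 difference, caput effect minus IS effect, was -2.13 for *Col11a1*. It was positive for the rest, at 0.34 for *Col16a1*, 0.60 for *Col17a1*, 0.60 for *Col18a1*, 0.64 for *Col15a1* and 0.76 for *Col7a1*. For the type IV chains it was 0.84 (*Col4a1*), 0.89 (*Col4a2*), 0.74 (*Col4a3*), 0.90 (*Col4a4*), 0.73 (*Col4a5*) and 0.94 (*Col4a6*). The fibril-associated *Col12a1* (1.37) and *Col14a1* (0.99) and the transmembrane *Col13a1* (1.24) completed the set.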

How the results depend on the processing

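The study's thresholds left 1 chain higher and 4 lower in the IS, 0 and 0 in the caput and 0 and 0 in the testis. A fold change above 2 left 2 chains with a more positive and 1 with a more negative effect in the caput in the interaction, where 1.95% and 2.62% of all genes passed, and 3 higher and 3 lower in the WT caput against the WT IS, where 11.2% and 9.83% did. With all epididymal groups in 1 fit, 7 chains rose in the IS and 12 in the caput, and *Col1a1* and *Col3a1* did not pass in the IS (adjusted p = 0.15 and 0.14). By DESeq2, or at an adjusted p below 0.01, 0 chains fell in the testis, and by DESeq2 *Col1a1* (adjusted p = 0.029) and *Col1a2* (adjusted p = 0.0096) passed in the caput. With at least 10 counts in every sample, 6 chains were higher in the WT testis, since chains rarely read in the epididymis were not tested. DESeq2 gave 2 chains with a more negative effect in the caput. Where no value above shows it, the cause was not tested.

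Leaving out single replicates gave 10 to 12 rises and 10 to 11 falls in the IS, 5 to 10 and 4 to 6 in the caput, 2 rises and 0 to 1 falls in the testis, 13 to 14 more positive and 1 to 2 more negative effects in the interaction, 10 to 13 higher and 11 to 12 lower chains in the WT caput, and 14 to 15 higher and 25 to 26 lower chains in the WT testis. In the testis, chains that had not passed changed sign, with ranges of -0.059 to 0.095 for *Col4a2*, -0.049 to 0.131 for *Col4a4*, -0.018 to 0.233 for *Col4a5* and -0.013 to 0.161 for *Col4a6*. The fall of *Col6a3* was lost by DESeq2 too (adjusted p = 0.067).

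With the replicate number as a block, 12 chains rose and 10 fell in the IS, 6 and 4 in the caput and 2 and 1 in the testis, and 2 chains had a more negative effect in the caput in the interaction. Same-numbered samples correlated by -0.19 to 0.20, so that the numbers were not read as a pairing. The number of counts limited the chains under the filter, 9 in the IS and 10 in the caput.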
